A study of Homo sapiens with 6 samples.

Results

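Metallothioneins and zinc transporters were examined as 10 genes, namely MT1E, MT1F, MT1G, MT1M, MT1X, MT2A, MTF1, SLC30A1, SLC30A10 and SLC39A14. They form a named list with no threshold on measured values, and each was matched by gene symbol to 1 Ensembl identifier among the 61543 rows of the count table. Expression was measured by RNA-seq in luciferases-expressing HepG2 cells, a human hepatoblastoma line that carries 2 luciferase reporters, an SLR3 luciferase driven by antioxidant response elements and an ELuc luciferase used as internal control. Both groups carried these reporters. The sedanolide group (3 libraries) was exposed to 100 μM sedanolide, a phthalide, for 24 h. The control group (3 libraries) did not receive it, and its vehicle is not given in the labels. The samples come from 1 reporter line, and nothing in the labels says whether replicates were separate cultures grown at different times, so p-values measure the spread between these libraries, which may be technical.

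Metallothioneins are small cysteine-rich proteins that bind zinc, copper and cadmium in the cytosol. Their genes lie in a cluster and are switched on by MTF1, a zinc-finger transcription factor that binds metal response elements (MREs) in their promoters when free zinc rises. The zinc exporter gene SLC30A1 is another MTF1 target. The SLC30 family (ZnT) moves metal out of the cytosol and the SLC39 family (ZIP) moves it in, and liver cells, which buffer zinc for the body, express members of each. Metallothionein genes also respond to glucocorticoids, cytokines and oxidative stress, and the antioxidant response element (ARE) is the site bound by NRF2, the factor that the study's reporter was built to follow.

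The promoters are shown as background to the MREs and the ARE. Most of the metallothioneins varied together between libraries, as described further on, but MT1E, MT1F and MT1G had no window. A link of motifs to this variation was not tested. The 250 bases before the RefSeq start (GRCh38.p14) were searched on both strands for the MRE letters TGCACNC or TGCGCNC and for the ARE letters TGACNNNGC. A window was found for 5 of the 10 members (MT1X, MT2A, MTF1, SLC30A1 and SLC30A10). The windows below run 5′ to 3′ on the strand of each gene, and capitals mark MRE or ARE letters on either strand.
MT2A (chr16:56608334-56608583, + strand): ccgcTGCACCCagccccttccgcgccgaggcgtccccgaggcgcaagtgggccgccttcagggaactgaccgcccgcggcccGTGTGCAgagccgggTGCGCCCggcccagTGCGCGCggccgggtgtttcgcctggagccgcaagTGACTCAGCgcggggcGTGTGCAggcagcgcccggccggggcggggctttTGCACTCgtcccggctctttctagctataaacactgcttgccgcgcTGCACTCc
MT1X (chr16:56682220-56682469, + strand): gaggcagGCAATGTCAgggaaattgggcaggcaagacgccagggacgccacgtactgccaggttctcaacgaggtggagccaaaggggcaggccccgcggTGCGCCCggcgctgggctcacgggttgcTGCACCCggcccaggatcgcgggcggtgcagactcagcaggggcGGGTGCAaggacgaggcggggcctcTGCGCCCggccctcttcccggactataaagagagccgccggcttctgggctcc
MT1H (chr16:56669564-56669813, + strand): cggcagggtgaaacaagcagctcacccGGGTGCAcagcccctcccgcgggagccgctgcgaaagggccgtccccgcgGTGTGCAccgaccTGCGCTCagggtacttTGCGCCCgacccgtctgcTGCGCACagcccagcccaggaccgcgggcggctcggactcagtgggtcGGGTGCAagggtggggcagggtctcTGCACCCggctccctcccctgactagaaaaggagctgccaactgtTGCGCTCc
SLC30A1 (chr1:211579162-211579411, − strand): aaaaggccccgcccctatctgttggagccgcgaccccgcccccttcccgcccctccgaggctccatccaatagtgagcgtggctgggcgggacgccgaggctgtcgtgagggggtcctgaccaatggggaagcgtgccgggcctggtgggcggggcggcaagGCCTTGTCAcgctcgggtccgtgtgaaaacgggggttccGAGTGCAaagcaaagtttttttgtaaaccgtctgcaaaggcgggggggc
MT2A held 7 MRE matches and 1 ARE match, the latter starting at −104 with the letters TGACTCAGC on the gene's own strand. MT1X held 4 MRE matches and 1 ARE match, and MT1H, a neighbouring metallothionein shown for comparison, held 8 MRE matches and 0 ARE matches. The window of MT1B, another neighbour that is not printed, held 3 MRE matches and 1 ARE match. SLC30A1 held 1 MRE match and 1 ARE match. MTF1 held 0 of either motif, and the RefSeq windows of SLC30A10 held 0 MRE matches, with 1 ARE match in 1 of its 2 windows. Of 35116 promoter windows of the same length, 24.8% held at least 1 MRE match, 0.37% held 4 or more, and 10.9% held an ARE match. These letter matches describe the windows and are not measured binding sites.

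Expected read counts summed to between 16420258 and 26714853 per library, and 14104 genes passed the filter on low counts. Levels are given as CPM, the counts scaled to a common library total, normalized by the trimmed mean of M-values. Principal component 1 of log2 CPM held 56.1% of the variance and split the libraries across the treatment groups into a side A (control 1, control 2 and sedanolide 3) and a side B (control 3, sedanolide 1 and sedanolide 2). The share of mitochondrial counts was 1.43% to 2.15% on side A and 4.23% to 5.22% on side B. No label names a batch that corresponds to the sides, so they are called only by their place on the component, and the difference of each tested member in CPM is also given within them. Within side A the sedanolide group is sedanolide 3 alone, and within side B the control group is control 3 alone. The sides were drawn from the same values that are tested, and they are unevenly split over treatment. Intervals, p-values and calls with side as a term treat the sides as known, so they may overstate the evidence. The summed level of 8 hepatic markers (ALB, AFP, APOA1, APOB, TTR, SERPINA1, HNF4A and TF) ranged from 28492.4 to 44438.7 CPM in controls and from 21008.9 to 37970.5 CPM in sedanolide. The summed level of 7 markers of blood, endothelial and stromal cells ranged from 78.1 to 97.9 CPM in controls and from 86.9 to 109.0 CPM in sedanolide, with VWF at 0 in every library. Most of this sum was ACTA2, at 65.2 to 79.4 CPM in controls and 68.9 to 89.1 CPM in sedanolide. CD68 and PECAM1 made up nearly all of the rest, and PTPRC, COL1A1 and COL3A1 were at 0.182 CPM or less in every library. Fewer cells and less RNA per cell cannot be told apart in these bulk samples.

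No member passed both thresholds, a false discovery rate of 0.05 and a 1.5-fold change, in edgeR's quasi-likelihood test (0 of 9 tested). MT2A, MT1E, MT1F and MT1G were on average higher with sedanolide, by 1.29-fold to 1.77-fold, and SLC39A14, SLC30A10 and SLC30A1 were on average lower, at 0.697, 0.722 and 0.854 times the control level. Over all genes 0.674% were called (95 of 14104, 51 higher and 44 lower). At an unadjusted p below 0.05 the same test counted 1 of the 9 members, SLC30A10, against 11.9% of all genes. DESeq2 also called 0 members (2.33% of all genes), with 4 below 0.05 unadjusted (12.4% of all genes). Limma-voom called 0 members (0.737% of all genes), with 1 below 0.05 (12.3% of all genes). The normalized levels of the 2 groups did not overlap for 3 of the 9 members (MTF1, SLC30A1 and SLC30A10), against 18.3% of all genes. The median log2 fold change was 0.31 over the 9 tested members and 0.01 over all genes tested. With the side of each library as a term, the medians were 0.02 and 0.01.

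**Figure D1:**
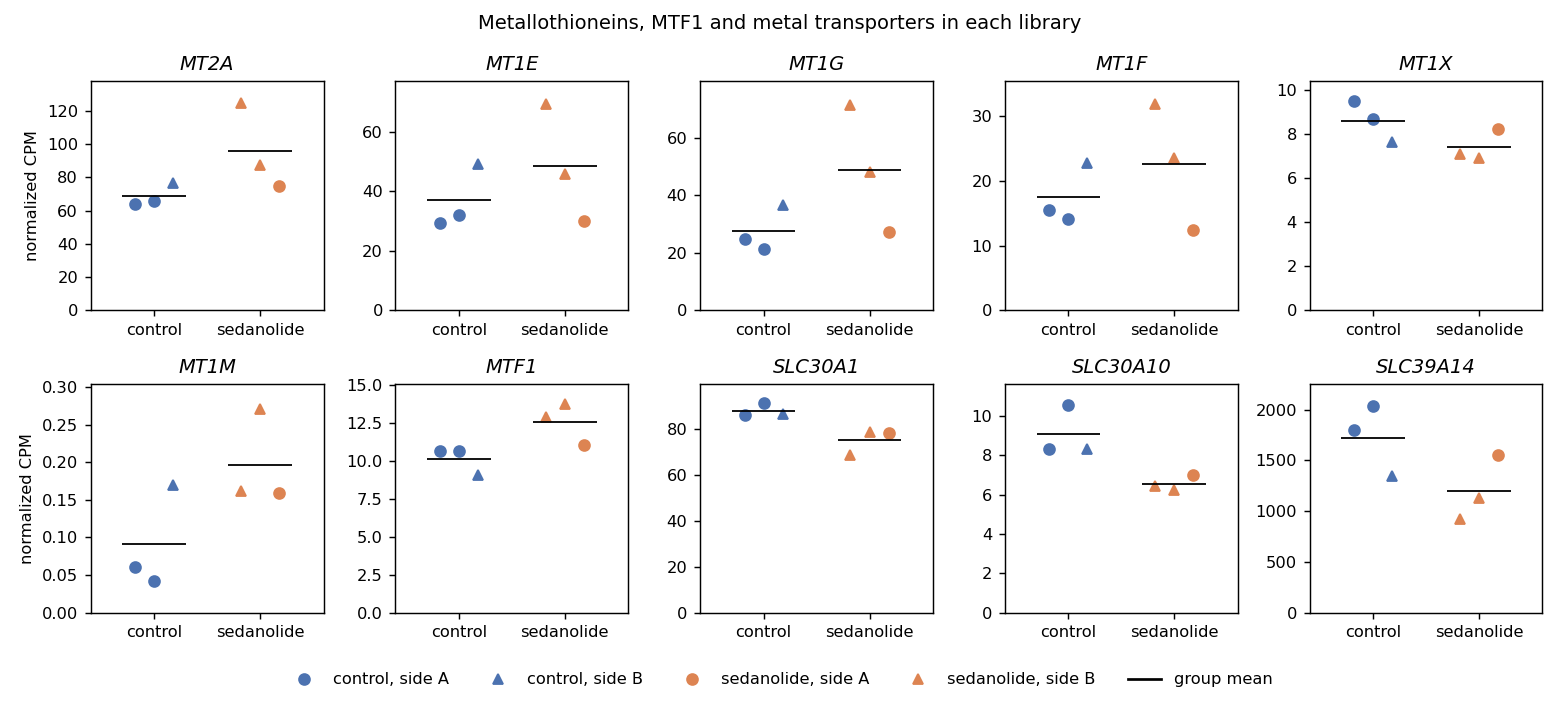
Normalized CPM (vertical axis, separate scale for each gene) of the 10 members in each library, by treatment on the horizontal axis. Circles are libraries of side A, triangles are libraries of side B, and bars are group means (3 libraries each). For MT1E, MT1F and MT1G the triangles lie above the circles within each group, while the groups of MTF1, SLC30A1 and SLC30A10 do not overlap.

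MT2A, the metallothionein with the most counts, lies at chr16:56608584-56609497 (+ strand, ENSG00000125148). Its level was 64.2, 66.0 and 76.6 CPM in controls 1 to 3 and 124.8, 87.6 and 74.8 CPM in sedanolide 1 to 3. Sedanolide 1 and 2 were above all controls, and sedanolide 3 was just under control 3, so the groups overlapped. The means were 68.9 ± 6.69 and 95.8 ± 26.0 CPM (SD, n = 3 each). The log2 fold change was 0.47 (SE 0.202, 95% interval 0.00 to 0.95), and edgeR with Benjamini-Hochberg adjustment gave an adjusted p of 0.421. The difference was 0.20 within side A and 0.45 within side B, both on the log2 scale. With side as a term it was 0.34 (95% interval 0.01 to 0.66, adjusted p = 0.241 in edgeR, Benjamini-Hochberg). Without sedanolide 1, the highest library, the log2 fold change of MT2A was 0.23.

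MT1G (chr16:56666730-56668065, − strand, ENSG00000125144) had the largest log2 fold change among the 9 tested members. Its level was 24.8, 21.4 and 36.7 CPM in controls and 71.5, 48.1 and 27.1 CPM in sedanolide. As for MT2A, sedanolide 3 was below control 3 while sedanolide 1 and 2 were above every control. Means were 27.6 ± 8.05 and 48.9 ± 22.2 CPM (SD, n = 3 each). This was a log2 fold change of 0.82 (1.77-fold, SE 0.363, 95% interval −0.03 to 1.68), with an edgeR Benjamini-Hochberg adjusted p of 0.434. Within side A the log2 difference was 0.23 and within side B it was 0.67. The fit with side as a term gave 0.47 (95% interval 0.07 to 0.87, edgeR Benjamini-Hochberg adjusted p = 0.181). Without sedanolide 1 the log2 fold change of MT1G was 0.44.

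MT1E and MT1F, 2 further isoforms of the cluster, likewise had their lowest sedanolide level in sedanolide 3, and their differences were of opposite sign on the 2 sides. MT1E (chr16:56625475-56627112, + strand, ENSG00000169715) was at 29.3, 32.1 and 49.3 CPM in controls and at 69.4, 45.7 and 30.1 CPM in sedanolide. Control 3 was above sedanolide 2 and 3, so the groups overlapped widely. The log2 fold change of MT1E was 0.39 (SE 0.329, 95% interval −0.39 to 1.17, edgeR Benjamini-Hochberg adjusted p = 0.68). It was −0.03 within side A, 0.19 within side B and 0.10 with side as a term (95% interval −0.27 to 0.46). MT1F (chr16:56657731-56660698, + strand, ENSG00000198417) was at 15.4, 14.1 and 22.8 CPM in controls and at 31.9, 23.5 and 12.4 CPM in sedanolide. Sedanolide 3 was the lowest of the 6 libraries for MT1F and sedanolide 1 the highest. The log2 fold change of MT1F was 0.37 (SE 0.35, 95% interval −0.45 to 1.20, edgeR Benjamini-Hochberg adjusted p = 0.713). It was −0.25 within side A, 0.26 within side B and 0.02 with side as a term (95% interval −0.35 to 0.40). Leaving out 1 library moved both values. Without sedanolide 1 the log2 fold change was 0.04 for MT1E and 0.04 for MT1F, without control 3 it was 0.65 and 0.62, and without sedanolide 3 it was 0.64 and 0.67. It was 0.24 for MT1E without control 1 and 0.24 for MT1F without control 2.

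MT1X, in contrast, was lower on average with sedanolide and lower on side B than on side A. MT1X (chr16:56682470-56684196, + strand, ENSG00000187193) was at 9.51, 8.68 and 7.63 CPM in controls and at 7.10, 6.91 and 8.25 CPM in sedanolide. Sedanolide 1 and 2 were the lowest libraries, and sedanolide 3 was above control 3. The log2 fold change was −0.21 (SE 0.15, 95% interval −0.57 to 0.14), and the edgeR Benjamini-Hochberg adjusted p was 0.625. Within sides A and B it was −0.14 and −0.12. Side B minus side A was −0.24 on the log2 scale for MT1X, against 0.37 for MT2A, 0.81 for MT1E, 0.89 for MT1F and 0.91 for MT1G. No test was made of the difference between isoforms. MT1X shares 321 exon bases with ENSG00000259827 on the same strand, a gene that had 0 counts in these libraries.

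MT1M (chr16:56632659-56633981, + strand, ENSG00000205364) was close to the limit of detection and did not pass the filter. It had 1, 1 and 3 counts in controls and 3, 7 and 4 counts in sedanolide, or 5 against 14 in all. The ratio of these totals per library size was 2.32, with an exact 95% interval of 0.79 to 8.24 that covers counting error only. A level of 3 counts corresponds to between 0.116 and 0.182 CPM in these libraries, and no difference in MT1M was shown at this depth.

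The sum of the 6 member metallothioneins was 143.3, 142.4 and 193.3 CPM in controls and 304.9, 212.2 and 152.8 CPM in sedanolide. Sedanolide 1 and 2 were the highest libraries and sedanolide 3 lay among the controls. The mean was 159.7 ± 29.1 CPM in controls and 223.3 ± 76.6 CPM in sedanolide (SD, n = 3 each), a ratio of 1.40, which was 1.07 within side A and 1.34 within side B. Of the 18 metallothionein genes and pseudogenes listed, 11 had a count in any library and 7 were at 0 in all. MT2A supplied 37.7% to 46.7% of the summed CPM of all 18 in each library. MT1G supplied 16.5%, 14.5% and 18.1% in controls and 22.2%, 21.3% and 16.9% in sedanolide, and MT1X supplied 6.33%, 5.89% and 3.75% in controls and 2.21%, 3.06% and 5.15% in sedanolide. In sedanolide 1 and 2 the share of MT1G was above that in every control and the share of MT1X below it. Isoforms have closely similar coding sequences, and RSEM can divide reads that match several genes. The deposited counts of the 11 detected metallothionein genes were whole numbers in every library.

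**Figure D2:**
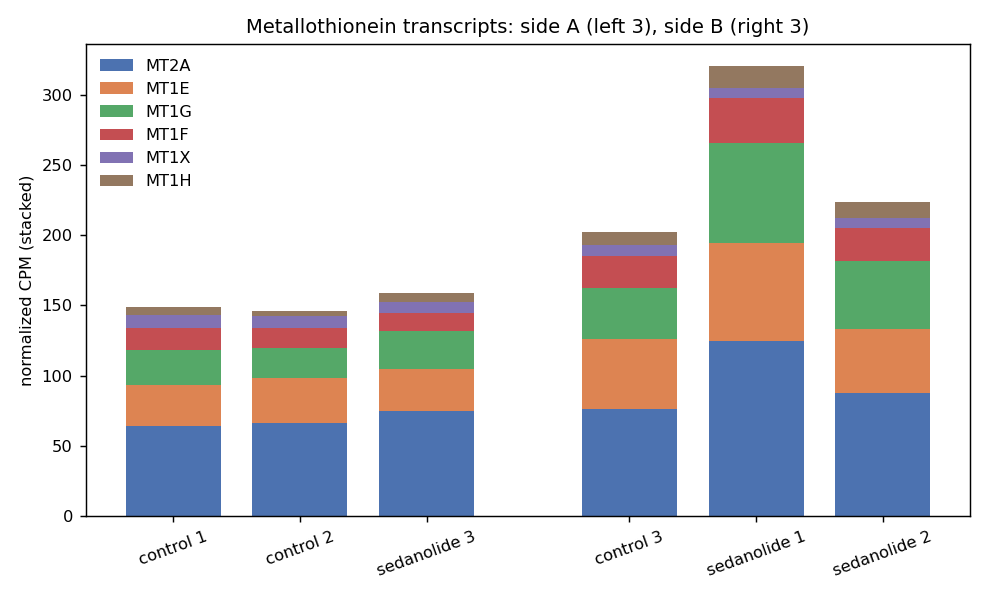
Summed normalized CPM of 6 metallothioneins (MT2A, MT1E, MT1G, MT1F, MT1X and MT1H) stacked in each library, with the 3 libraries of side A on the left and the 3 of side B on the right. Sedanolide 3 is close to the controls of side A, and sedanolide 1 and 2 are above control 3 on side B.

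The member metallothioneins share a cluster of 75.6 kb on chromosome 16 (chr16:56608584-56684196), and its other genes were read in the same fit. MT1H, between MT1G and MT1X, was at 5.76, 3.81 and 8.93 CPM in controls and at 15.3, 11.9 and 5.95 CPM in sedanolide. Its log2 fold change was 0.84 (SE 0.415, edgeR Benjamini-Hochberg adjusted p = 0.482), with 0.34 within side A and 0.59 within side B. Sedanolide 1 and 2 were again above every control. MT1A, at about 1 CPM, had a log2 fold change of −0.04 (edgeR Benjamini-Hochberg adjusted p = 0.96), with −0.05 within side A and 0.06 within side B. MT1B, which was singled out after its values were seen, had 0, 0 and 2 counts in controls and 8, 16 and 4 counts in sedanolide. The ratio of its totals per library size was 11.6, with an exact 95% interval of 2.93 to 101 for counting error alone. MT1B did not pass the filter, and with no filter its edgeR Benjamini-Hochberg adjusted p was 0.216.

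**Figure D3:**
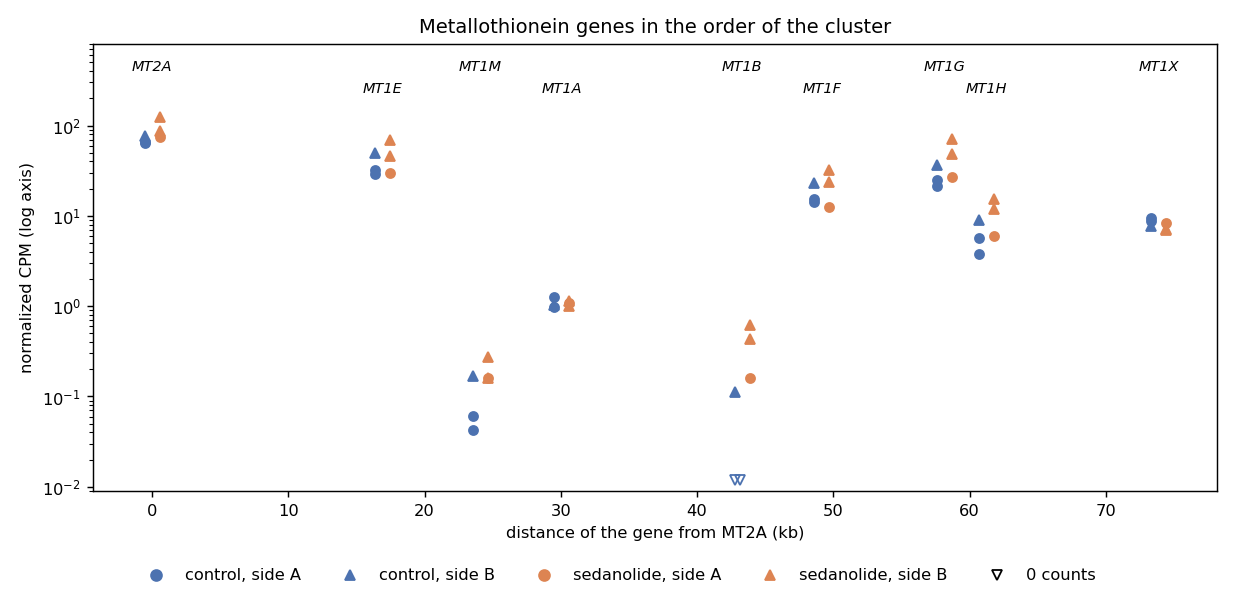
Normalized CPM (vertical log axis) of metallothionein genes in each library against the distance of the gene from the start of MT2A in kb. Open triangles mark libraries with 0 counts, drawn at the bottom. On this scale, which is not per length, MT2A at distance 0 is the highest gene, MT1E, MT1G and MT1F form the next tier, and MT1M, MT1A and MT1B lie near or below 1 CPM.

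MTF1, the zinc-sensing transcription factor that binds MREs, lies on chromosome 1 (chr1:37809574-37859592, − strand, ENSG00000188786). Its level was 10.7, 10.6 and 9.04 CPM in controls and 12.8, 13.7 and 11.0 CPM in sedanolide. All sedanolide libraries were above all controls, though sedanolide 3 exceeded control 1 by little. Means were 10.1 ± 0.926 and 12.5 ± 1.37 CPM (SD, n = 3 each). On the log2 scale the fold change was 0.31 (1.24-fold, SE 0.145, 95% interval −0.03 to 0.65, edgeR Benjamini-Hochberg adjusted p = 0.458). It was 0.05 within side A and 0.55 within side B, while side B minus side A was 0.03.

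The 3 transporters were all lower on average with sedanolide and lower within both sides. SLC39A14 (ZIP14, chr8:22367278-22434129, + strand, ENSG00000104635), an importer of zinc, manganese and non-transferrin-bound iron, was the member with the highest CPM, a scale that also grows with transcript length. It was at 1798, 2032 and 1342 CPM in controls and at 923.5, 1128 and 1552 CPM in sedanolide. Sedanolide 1 and 2 were below all controls and sedanolide 3 was above control 3, so the groups overlapped. Its log2 fold change was −0.52 (0.697 times control, SE 0.234, 95% interval −1.07 to 0.03, edgeR Benjamini-Hochberg adjusted p = 0.44). SLC39A14 was −0.30 within side A and −0.39 within side B. With side as a term it was −0.35 (95% interval −0.60 to −0.09, edgeR Benjamini-Hochberg adjusted p = 0.126). Its side B minus side A was −0.56 on the log2 scale, of opposite sign to MT1E, MT1F and MT1G.

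SLC30A10 (chr1:219685427-219959018, − strand, ENSG00000196660), best known as a manganese exporter, was at 8.30, 10.5 and 8.31 CPM in controls and at 6.45, 6.22 and 6.98 CPM in sedanolide. Every sedanolide library was below every control. The means were 9.05 ± 1.29 and 6.55 ± 0.389 CPM (SD, n = 3 each). On the log2 scale the fold change was −0.47 (SE 0.153, 95% interval −0.83 to −0.11), and the edgeR Benjamini-Hochberg adjusted p was 0.292. The difference was nearly the same on both sides, −0.42 within side A (sedanolide 3 alone against controls 1 and 2) and −0.39 within side B (sedanolide 1 and 2 against control 3 alone).

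SLC30A1 (ZnT1, chr1:211571568-211579161, − strand, ENSG00000170385), which exports zinc across the plasma membrane, was at 85.8, 91.1 and 86.5 CPM in controls and at 68.5, 78.4 and 78.0 CPM in sedanolide. The groups did not overlap, and control levels were close together. The log2 fold change was −0.23 (0.854 times control, SE 0.111, 95% interval −0.49 to 0.03, edgeR Benjamini-Hochberg adjusted p = 0.473). It was −0.18 within side A and −0.24 within side B. SLC30A1 and the metallothioneins are both known MTF1 targets, and here the averages of SLC30A1 and MT1X were lower and those of MT2A, MT1E, MT1F and MT1G higher, none of them past the thresholds.

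**Figure D4:**
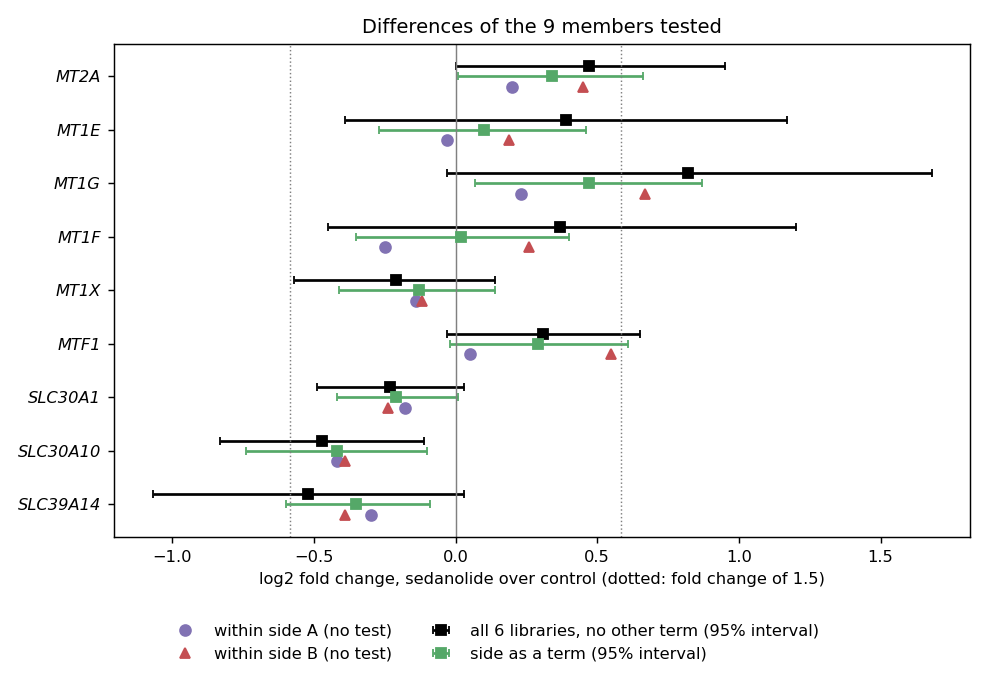
Log2 fold change of sedanolide over control for the 9 tested members. Points with bars are the fits without and with the side of each library as a term, with 95% intervals, smaller marks are the differences within side A and within side B, and dotted lines mark a 1.5-fold change. The intervals of MT1E and MT1F narrow around 0 with the side term, and SLC30A10 stays below 0 in both fits.

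With side as a term, which was itself drawn from these data, 2.7% of all genes were called (381 of 14104), and 0 of the 9 members. At an unadjusted p below 0.05 that edgeR fit counted 4 members, against 19.5% of all genes. These were MT1G and MT2A, higher, and SLC30A10 and SLC39A14, lower. The direction of the pooled difference was kept within side A by 7 of the 9 members and within side B by 9 of 9. The within-side differences come from the same libraries as the pooled one, so this agreement is partly built in and is no replication. The share of all genes that kept their direction was not computed. Transcript length moved with the sides, as genes with transcripts under 1000 bases had a median side B minus side A of 0.11 (quartiles −0.27 to 0.44), those of 1000 to 2000 bases had 0.19 and those of 5000 bases or more had −0.16. The longest annotated transcripts of MT1E, MT1G and MT2A are 746, 628 and 903 bases, and those of MT1F and MT1X are 1573 and 1727 bases. By longest annotated transcript MT1F and MT1X fall in the same class, with side B minus side A of 0.89 and −0.24. The transcripts counted in these cells may be of other lengths. Whether length underlies the side differences of the members was not tested. With a correction of each library for GC content and transcript length, edgeR called 0 members (1.13% of all genes), with 5 below 0.05 unadjusted (14.5% of all genes). The log2 fold change was then 0.77 for MT1G, 0.42 for MT2A, 0.33 for MT1E and 0.34 for MT1F.

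Levels of different genes were compared per transcript length, as TPM, in which counts are divided by transcript length and scaled to a common total, from the second deposited table, which held 7 of the 10 members. In controls SLC39A14 (571.9 ± 155.3 TPM) and MT2A (516.1 ± 38.2 TPM) were highest and their ranges overlapped. MT1G followed at 200.9 ± 46.3 TPM, then MT1E (119.3 ± 24.8 TPM) and MT1F (113.1 ± 24.2 TPM) with overlapping ranges, then MT1X at 63.5 ± 8.89 TPM and SLC30A1 at 21.8 ± 2.32 TPM (SD, n = 3 each). In sedanolide MT2A (590.4 to 819.3 TPM) was above SLC39A14 (261.3 to 510.9 TPM) with no overlap, and SLC39A14 overlapped MT1G (208.6 to 456.4 TPM). The order from MT1G to SLC30A1 was as in controls. For MT2A the 2 groups, which overlapped in CPM, did not overlap in TPM, with 472.4 to 542.8 in controls. The groups of SLC30A1 did not overlap in TPM either. In CPM the groups did not overlap for 18.3% of all genes, and this share was not computed in TPM. On the log2(TPM + 1) scale limma called 0.554% of the 11006 genes and 0 of the 7 members, with 0 members below an unadjusted p of 0.05. The log2 difference was 0.66 for MT1G (limma, Benjamini-Hochberg adjusted p = 0.468), 0.36 for MT2A (0.466), −0.65 for SLC39A14 (0.468) and −0.33 for SLC30A1 (0.456).

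Genes whose levels followed those of a member most closely were found by the mean absolute difference of centred log2 CPM over the 6 libraries, among 12767 genes. For MT2A they were GTF2A2 (0.052), SIAH2 (0.0537), ERICH1 (0.0617) and CHAC2 (0.0643). For SLC30A1 they were MARCHF8 (0.0178), PCGF5 (0.0209), HSDL2 (0.0235) and PLD1 (0.0268). With 6 libraries whose largest split is by side, such likeness is a description only.

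Other genes of metal handling were read from 5 lists with 51 genes, of which 34 were tested. The edgeR fit called 0 of the 34, with 1 below 0.05 unadjusted, DESeq2 called 1 with 2 below 0.05, and limma-voom called 0 with 2 below 0.05. Over all genes these fits called 0.674%, 2.33% and 0.737%, with 11.9%, 12.4% and 12.3% below 0.05 unadjusted. The gene behind the DESeq2 call was SLC40A1 (ferroportin), the iron exporter. It was at 68.9, 83.0 and 60.4 CPM in controls and at 27.2, 32.9 and 40.4 CPM in sedanolide, with no overlap. Its log2 fold change was −1.08 (SE 0.188, edgeR Benjamini-Hochberg adjusted p = 0.0713), with −0.90 within side A and −1.01 within side B, and with side as a term it was −0.96 (edgeR Benjamini-Hochberg adjusted p = 0.00282) and passed both thresholds. In that list of manganese and divalent metal transport the median log2 fold change of the 6 tested genes was 0.05.

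Of the other zinc importers 11 of 13 were tested, 3 with a positive log2 fold change, and the median was −0.19. SLC39A1, a plasma membrane importer, was at −0.28 and SLC39A7, which releases zinc from the endoplasmic reticulum, was at −0.21 (edgeR, Benjamini-Hochberg adjusted p = 0.516 and 0.522). Within sides A and B they were −0.20 and −0.15 for SLC39A1 and −0.15 and −0.18 for SLC39A7. Of the other zinc exporters 4 of 9 were tested, with a median of 0.01, and those with the smallest p were SLC30A9 at −0.06 and SLC30A5 at 0.02 (edgeR, Benjamini-Hochberg adjusted p = 0.87 and 0.951). SLC30A9 was −0.27 within side A and 0.02 within side B, and SLC30A5 was −0.03 and −0.01. All 11 copper genes were tested, with a median of −0.02, and CP (ceruloplasmin) was at −0.74 (SE 0.356, edgeR Benjamini-Hochberg adjusted p = 0.468), with −0.22 within side A and −0.87 within side B. The median over all genes tested was 0.01, and edgeR called 0 genes of these 3 lists (0.674% of all genes).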

How the data were processed

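The RNA-seq data comprised 3 control libraries and 3 libraries of HepG2 reporter cells given sedanolide (100 μM, 24 h). Per the study's methods, mRNA was captured, directional libraries were sequenced as paired-end reads, and the authors used FastQC, Trimmomatic, STAR (GRCh38) and RSEM, whose versions and annotation release are not given in the sources used here. Whether counting used strand is not given either. The authors deposited expected counts per gene from RSEM, not normalized, of which 7.9% to 8.59% were not whole, and these were rounded. The authors also deposited log2 values of TPM + 1 for 11006 genes, where the added 1 was read from the values. Their filter is not stated.

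Members were matched by symbol and Ensembl identifier, and positions were taken from GENCODE 44 (61369 genes matched). The main test was edgeR 4.0.16 in R 4.3.3 (quasi-likelihood, robust, TMM, filterByExpr, Benjamini-Hochberg over 14104 genes, false discovery rate 0.05 and fold change 1.5). Within-group SDs, 95% intervals and within-side differences (no test) came from the same normalization. DESeq2 1.42.0, limma-voom, other scalings, filters and thresholds, the replicate block, the side as a term leaving out each library and a GC content and length correction (chosen after seeing the data) were alternatives, and limma 3.58.1 was used on the log2 TPM. The code was tested on simulated data. Libraries were not duplicates. Members and lists were chosen with earlier results of these data known. Of the other lists, genes past both thresholds or else the 1 or 2 with the smallest p were named. MT1B, HMOX1 and the markers of cell types were named outside this rule. Promoter sequences were taken from RefSeq. Totals between 16420258 and 26714853 counts set the precision, and intervals on counts cover counting error only.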

Additional observations from a re-analysis of the deposited data

How the results depend on the processing

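The 0 calls among members held under 18 other settings of the count fit, and no member changed sign in any of them. The settings with no fold change cutoff and with a false discovery rate of 0.10 reread the main fit, so signs could not change there. Within side A, which is not among these settings, MT1E and MT1F had the opposite sign (−0.03 and −0.25). The lowest Benjamini-Hochberg adjusted p of a member in these settings was 0.102, for MT1G in edgeR without sedanolide replicate 3. Over these settings the log2 fold change ranged from 0.44 to 1.11 for MT1G, 0.23 to 0.62 for MT2A, 0.04 to 0.65 for MT1E, 0.02 to 0.67 for MT1F, −0.75 to −0.35 for SLC39A14 and −0.54 to −0.34 for SLC30A10. Calls among all genes were 95, and became 328 with DESeq2 (130 higher and 198 lower), 158 with no filter, 381 with the side term, 186 at a false discovery rate of 0.10 and 160 with the correction for GC content and length, which was chosen after seeing the data. Leaving out 1 library gave 0 to 136 calls, with 0 without control 1, 8 without control 2, 29 without control 3, 13 without sedanolide 1, 0 without sedanolide 2 and 136 without sedanolide 3. Members below 0.05 unadjusted numbered 1, 0 and 4 without controls 1, 2 and 3 (7.35%, 8.66% and 13.8% of all genes) and 1, 0 and 7 without sedanolide 1, 2 and 3 (8.27%, 6.27% and 23% of all genes). Calls among the other metal genes went from 0 to 1, which was SLC40A1, with DESeq2, no filter, the side term and the rate of 0.10, and were 0 to 1 when 1 library was left out. The replicate block gave 0 calls, with 772 of 14104 genes below an unadjusted p of 0.05. Deviations of same-numbered libraries from their group means correlated at −0.13, −0.30 and −0.73 over the tested genes. Same-numbered libraries lie on opposite sides of component 1, which shapes these values. They therefore cannot decide whether same-numbered samples were paired, and no label says so. No library correlated best with its own number. The cause of these shifts was not tested. In the TPM table the members called remained 0 under each alternative. The share of all genes called is given only for the main TPM fit (0.554%), so these 0 calls have no background share beside them. Depth limits MT1M and MT1B.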

Other observations

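Lists of heavy metal stress genes, glucocorticoid targets and acute phase genes were read in the same fit. Whether what moves these genes also moves the metallothioneins was not tested. Of the 6 heavy metal stress genes, which code for heme oxygenase and chaperones, 5 had a positive log2 fold change. Among them edgeR called 0 (0.674% of all genes), with 2 below 0.05 unadjusted (11.9% of all genes). These were HSPH1, an HSP110 chaperone, at 0.60 (SE 0.167, edgeR Benjamini-Hochberg adjusted p = 0.22), and BAG3, a co-chaperone, at 0.45 (0.383). Within sides A and B they were 0.40 and 0.56 for HSPH1 and 0.28 and 0.36 for BAG3. HSPH1 was called by DESeq2 (2.33% of all genes). HMOX1, which codes for heme oxygenase 1, was at −0.04, with 0.04 within side A and 0.12 within side B. Of the glucocorticoid targets 7 of 8 were tested and 0 called, with 1 below 0.05 unadjusted in edgeR (11.9% of all genes). FKBP5, a co-chaperone of the glucocorticoid receptor, was at 0.41 (SE 0.116, edgeR Benjamini-Hochberg adjusted p = 0.232), and TSC22D3 (GILZ) was at −0.71 (0.465), so these targets had opposite signs. Within sides A and B they were 0.36 and 0.35 for FKBP5 and −0.54 and −0.88 for TSC22D3. TSC22D3 was weakly detected, with 16, 13 and 19 counts in controls and 10, 14 and 12 counts in sedanolide.

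Of the acute phase genes 8 of 11 were tested, 2 with a positive log2 fold change. In this list edgeR called 0 (0.674% of all genes), with 4 below 0.05 unadjusted (11.9% of all genes), all of them lower. FGA, the fibrinogen alpha chain, was at 889.8, 968.0 and 822.4 CPM in controls and at 515.9, 538.9 and 559.8 CPM in sedanolide, with no overlap. Its log2 fold change was −0.73 (SE 0.115, edgeR Benjamini-Hochberg adjusted p = 0.0502), and DESeq2 and limma-voom called it. SOCS3, a feedback inhibitor of cytokine signalling, was at −0.61 (SE 0.152, edgeR Benjamini-Hochberg adjusted p = 0.177). Within sides A and B they were −0.73 and −0.64 for FGA and −0.74 and −0.62 for SOCS3. With side as a term FGA and SOCS3 were called (2.7% of all genes). The 8 hepatic markers had a median log2 fold change of −0.33, with 0 called by edgeR and 2 below 0.05 unadjusted, and the 3 tested markers of other cell types had a median of 0.16, with 0 called and 0 below 0.05.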
